A study of Mus musculus with 13 samples.

Results

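Glucose, monocarboxylates such as lactate, and many vitamins and ions cross cell membranes through carriers of the Slc2a, Slc16a and Slc5a families. All genes with a symbol of the form Slc2a, Slc16a or Slc5a followed by a number were taken as members, each through a probe set that carries 1 gene symbol, or the brightest of them where a gene has several. This gave 36 of the 19938 genes tested, with 12 of the Slc2a family, 13 of the Slc16a family and 11 of the Slc5a family. They were measured with Affymetrix Mouse Gene 1.0 ST arrays in cerebral meninges freed from the brains of newborn C57BL6 pups, 1 pup per array. The 4 mutants were Pdgfc-/-; Pdgfra GFP/+ and so lacked PDGF-C and carried the GFP allele, a null allele of Pdgfra, beside a functional one. The 9 controls were all their littermates of other genotypes: Pdgfra GFP/+ pups that were Pdgfc+/- or Pdgfc+/+, and pups without the GFP allele that were Pdgfc-/-, Pdgfc+/- or Pdgfc+/+. The labels do not say which control had which of these genotypes, and all pups came from a single litter.

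Slc2a genes encode GLUT proteins, which let glucose and other sugars pass down their gradient. GLUT1 is known as the carrier of brain endothelium and GLUT3 as that of neurons. Most Slc16a genes encode monocarboxylate transporters (MCT), of which some move lactate and ketone bodies together with a proton and others move aromatic amino acids, carnitine or creatine. Slc5a genes encode carriers that use the sodium gradient to take up glucose, inositol, iodide, choline, monocarboxylates or vitamins against a gradient. In bulk tissue such as this, fewer cells of a type and less RNA per cell cannot be told apart.

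The deleted gene Pdgfc was at 25.7 ± 3.41 (intensity, SD, n = 4) over the mutants, against 164 ± 86.8 (n = 9) over the controls, and control 2, at 5.88, lay below all mutants. The mean of 16 meningeal fibroblast genes, on the scale of log2(intensity + 16), was 10.45 to 11.08 in mutants and 10.87 to 11.35 in controls. No other tissue was measured, so the tissue label was not tested. Xist was at 2.24 to 4.77 in the mutants and at 4.78 to 8.73 in 3 controls, against 536 to 1020 in the other 6, so the groups differed in sex as well as genotype. The median intensity of an array was 56.0 to 89.7 in mutants and 44.1 to 89.0 in controls.

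In mutant meninges 10 of the 36 transporter genes fell and 1 rose, while 25 did not pass the test. The test was limma on log2(intensity + 16), and a gene rose or fell where its p, adjusted over all tested genes by Benjamini-Hochberg, was under 0.05. Falls made up 27.8% of the members, against 6.31% of all tested genes, and the single rise 2.78%, against 8.58%. The groups did not overlap for 5 members, 1 with the mutants higher (6.4% of all tested genes) and 4 with the mutants lower (3.04%). The gene that rose was Slc2a3, the neuronal GLUT3, and the largest fall among the members was that of Slc2a12, which encodes the glucose transporter GLUT12. The median log2 fold change was -0.12 over the members and 0.0043 over all tested genes. By family it was -0.12 for Slc2a, where 2 fell and 1 rose, -0.30 for Slc16a, where 6 fell, and -0.02 for Slc5a, where 2 fell. In the brighter 50% of tested genes lay 15 members, of which 8 fell (53.3%, against 10.7% of all genes in that range) and 1 rose (6.67%, against 10.6%). The remaining 21 lay in the dimmer 50%, where 2 fell (9.52%, against 1.94%) and none rose (against 6.54%, with 2 members higher at an unadjusted p under 0.05).

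**Figure D1:**
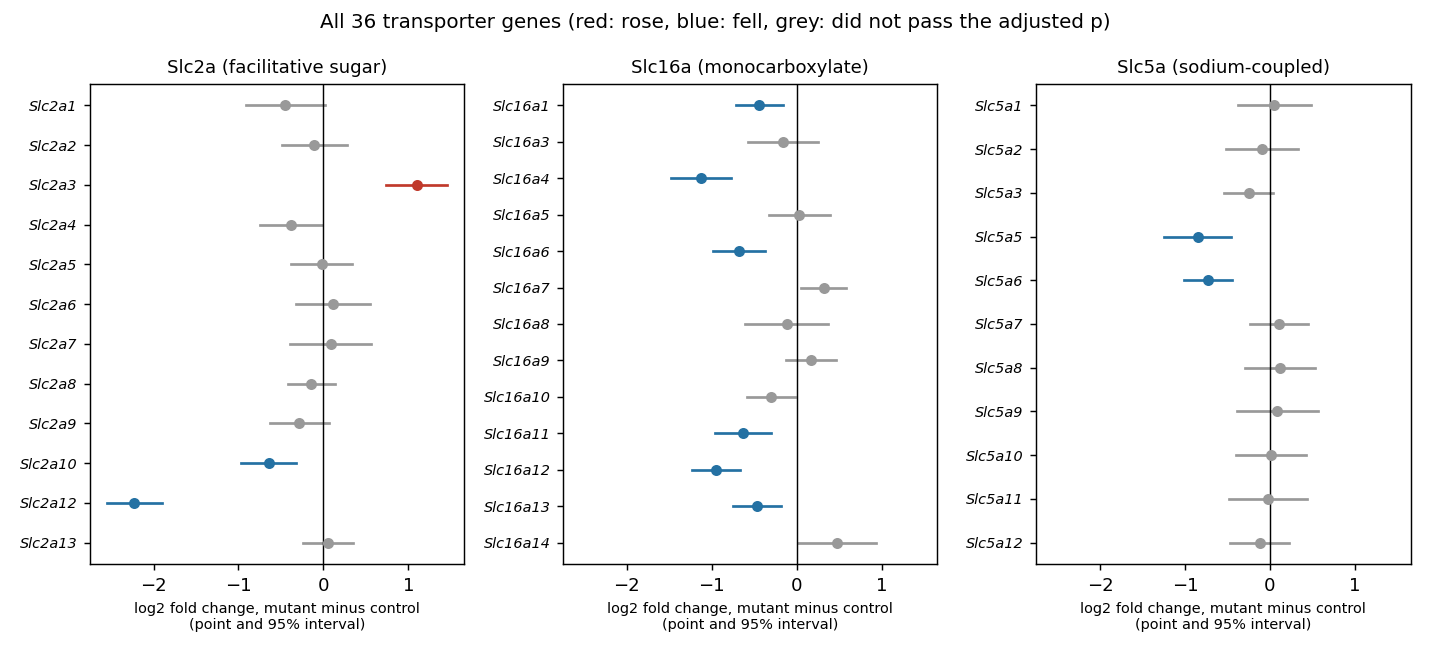
Log2 fold change (mutant minus control, on the log2(intensity + 16) scale) of the 36 transporter genes with its 95% interval, by family, from 4 mutants and 9 controls. Slc2a3 lies to the right at 1.10 and Slc2a12 farthest to the left at -2.22, and the 25 grey genes lie between -0.45 and 0.47.

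The promoters of the 4 genes that fell without overlap between the groups are given to show what stands at the start of each. They cover 250 bases before to 50 bases after a gene's start (RefSeq, build GRCm38.p6) and are written along the gene's strand. Of the 36 genes, 27 had such a window. The windows lie at chr10:22644761-22645060 (Slc2a12, plus strand), chr3:107290980-107291279 (Slc16a4, plus strand), chr19:34747279-34747578 (Slc16a12, minus strand) and chr5:31048513-31048812 (Slc5a6, minus strand, the first of 2 windows listed). Capitals mark matches on either strand to the GC box GGGCGG, the CCAAT box, the TATA box TATAAA, and the cores ACGTG and GCGTG of sites bound by hypoxia-inducible factors.
Slc2a12: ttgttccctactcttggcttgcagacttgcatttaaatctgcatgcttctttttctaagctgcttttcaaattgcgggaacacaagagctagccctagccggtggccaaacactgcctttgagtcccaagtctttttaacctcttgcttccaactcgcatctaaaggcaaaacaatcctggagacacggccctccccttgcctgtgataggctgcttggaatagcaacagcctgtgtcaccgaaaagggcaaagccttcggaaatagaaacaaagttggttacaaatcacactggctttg
Slc16a4: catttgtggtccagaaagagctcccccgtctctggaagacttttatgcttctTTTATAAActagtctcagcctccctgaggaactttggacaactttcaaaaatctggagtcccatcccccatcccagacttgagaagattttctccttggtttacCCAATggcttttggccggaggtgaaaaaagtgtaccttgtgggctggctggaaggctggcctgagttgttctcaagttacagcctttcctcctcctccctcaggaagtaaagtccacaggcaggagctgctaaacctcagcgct
Slc16a12: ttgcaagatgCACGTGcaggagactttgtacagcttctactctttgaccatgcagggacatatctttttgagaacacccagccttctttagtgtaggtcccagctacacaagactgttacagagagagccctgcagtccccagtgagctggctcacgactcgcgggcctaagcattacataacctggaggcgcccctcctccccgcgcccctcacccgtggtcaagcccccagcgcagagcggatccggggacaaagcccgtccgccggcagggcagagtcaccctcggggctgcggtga
Slc5a6: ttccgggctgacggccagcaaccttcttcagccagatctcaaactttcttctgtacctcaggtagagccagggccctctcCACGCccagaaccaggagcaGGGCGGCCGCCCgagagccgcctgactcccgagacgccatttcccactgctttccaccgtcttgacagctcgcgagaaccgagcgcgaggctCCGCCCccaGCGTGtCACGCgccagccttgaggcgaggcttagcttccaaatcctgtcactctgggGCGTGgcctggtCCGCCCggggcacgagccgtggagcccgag

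The 4 windows had no match in common. That of Slc2a12 held none of these letters, and that of Slc16a4 held 1 CCAAT and an overlapping pair of TATAAA, 1 on each strand. In the window of Slc16a12 a single palindrome gave ACGTG on both strands. The Slc5a6 window held 4 matches of GGGCGG and 4 of GCGTG. Over all 32851 windows of this length, 35.7% held GGGCGG, 37.4% CCAAT, 13.6% TATAAA, 19.6% ACGTG and 32.4% GCGTG. Over the 27 windows of the transporter genes these shares were 48.1%, 40.7%, 11.1%, 22.2% and 40.7%. A match describes letters and is not a measured site.

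Among the glucose carriers of the first GLUT class (Slc2a1 to Slc2a4), the neuronal and the endothelial gene differed in result. Slc2a3 (GLUT3) had intensities of 174, 208, 193 and 243 in mutants 1 to 4, and of 59.3 to 116 in the controls, with a median of 94.2. All mutants were above all controls. The difference for Slc2a3 was 1.10 on the log2 scale (standard error 0.17, adjusted p = 8.85e-05 with limma), which is 2.14-fold higher. Slc2a1 (GLUT1) had intensities of 1144, 1083, 1040 and 1977 in mutants 1 to 4, and of 1186 to 3104 in the controls, with a median of 1645. Mutants 1 to 3 lay below every control and mutant 4 above the control median. Its log2 fold change of -0.45 did not pass (adjusted p = 0.234), with a 95% interval from -0.91 to 0.02. In the controls Slc2a1 was highest in controls 2 and 6, at 3104 and 2344. Those were also the controls with the highest mean of endothelial markers (9.99 and 9.86 on the log2 scale) and of the 13 reference genes (10.88 and 10.77).

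Slc2a4, which encodes the insulin-responsive GLUT4, had a log2 fold change of -0.38 (interval from -0.74 to -0.02, adjusted p = 0.175). Slc2a2, the GLUT2 gene of liver and pancreatic beta cells, had -0.11 (adjusted p = 0.916). Neither passed the test. Of the second class, the fructose carrier gene Slc2a5, Slc2a7 and the urate carrier gene Slc2a9 had log2 fold changes of -0.02, 0.08 and -0.28, and none passed.

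The third GLUT class held the largest change of the 3 families. Slc2a12 had intensities of 148, 200.3, 157 and 289 in mutants 1 to 4, and of 730.4 to 1080 in the controls, with a median of 993. The brightest mutant was far below the dimmest control. Its log2 fold change was -2.22 (standard error 0.15, adjusted p = 3.04e-09), which is 4.68-fold lower. Slc2a10 (GLUT10), the gene mutated in human arterial tortuosity syndrome, had intensities of 64.1, 79.7, 54.0 and 91.1 in mutants 1 to 4, and of 91.1 to 146 in the controls, with a median of 136. The groups met at their edges, with mutant 4 at 91.07 and control 7 at 91.05. Its log2 fold change was -0.65 (standard error 0.15, adjusted p = 0.00590). Slc2a6 and Slc2a8, whose proteins lie largely on internal membranes, had 0.11 and -0.14, and Slc2a13, a proton-coupled inositol carrier gene, had 0.06. These 3 did not pass.

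Slc2a3 and Slc2a12 passed in the same direction under all 31 alternative settings, with log2 fold changes from 0.94 to 1.49 and from -2.41 to -1.83. With the mutants set only against the 3 controls of low Xist, Slc2a3 had 1.12 (adjusted p = 0.000255) and Slc2a12 -2.15 (adjusted p = 1.08e-08). Slc2a10 lost its call centred on fibroblast genes (log2 fold change -0.25, adjusted p = 0.0693), with unequal variances (0.0840), by the fold above 2 of the study's methods, and where the Xist level was a covariate (0.0530).

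**Figure D2:**
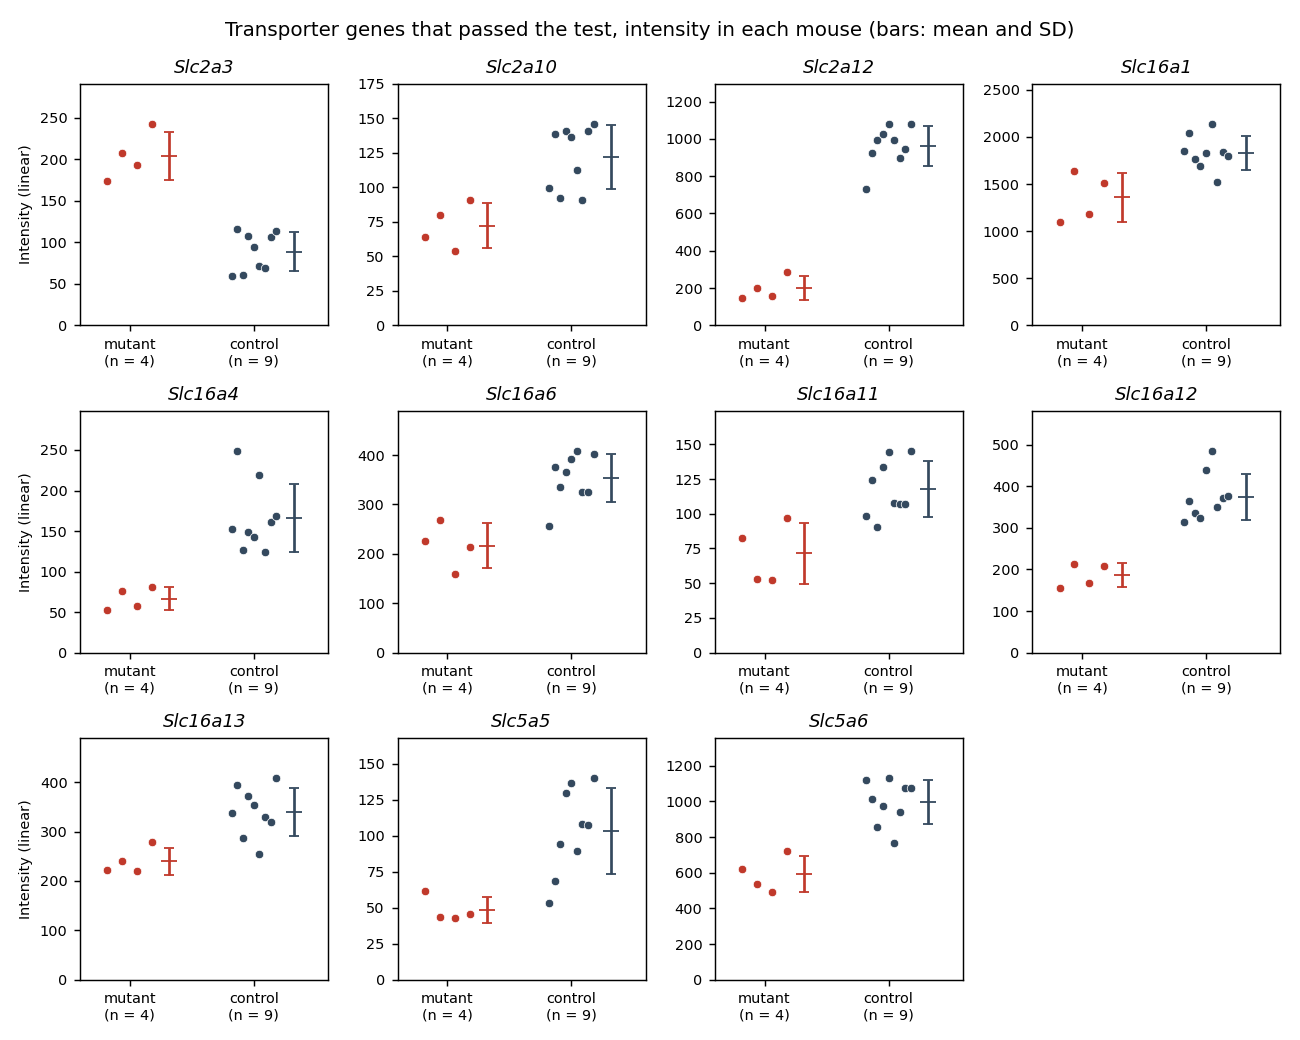
Intensity on a linear scale (vertical axis, from 0) of the 11 transporter genes that passed the test in each of the 4 mutants and 9 controls, with the mean and SD of each group beside the points. The groups are apart for Slc2a3, Slc2a12, Slc16a4, Slc16a12 and Slc5a6, and overlap for the other 6.

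Of the proton-coupled lactate carriers, Slc16a1 (MCT1), the broadly expressed form that is also found in brain endothelium, fell. Its intensities were 1102, 1634, 1181 and 1514 in mutants 1 to 4, and 1522 to 2137 in the controls, with a median of 1824. Mutant 2 lay above the lowest control, and the other 3 mutants lay below all controls. The log2 fold change was -0.44 (standard error 0.13, adjusted p = 0.0283), which is 1.36-fold lower. This call was lost without mutant 1 (adjusted p = 0.147) or mutant 3 (0.101), without the 4 arrays of lowest median (0.144), with Xist as a covariate (0.171) and against the 3 controls of low Xist (0.212), where the log2 fold changes of -0.44 and -0.45 were as large as over all controls. It was lost too when centred on the array median (0.0571) or on fibroblast genes (log2 fold change -0.05, adjusted p = 0.604), with array weights (0.0673), with unequal variances (0.232) and with the replicate block (-0.45, adjusted p = 0.125). As with Slc2a1, the level of Slc16a1 was highest in controls 2 and 6.

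The other genes of proton-coupled lactate carriers did not pass. Slc16a7 (MCT2), the high-affinity carrier of neurons, had intensities of 97.5, 106, 110.1 and 112 in mutants 1 to 4, and of 66.0 to 104 in the controls, with a median of 80.8. Every mutant lay above the control median, and control 9 reached into the range of the mutants. The log2 fold change was 0.32, with an interval from 0.05 to 0.58 and an adjusted p of 0.109. Slc16a3 (MCT4), the lactate exporter of glycolytic cells, was at 161, 90.9, 86.0 and 122 in mutants 1 to 4 and at 87.0 to 176 in the controls (median 146). Its groups covered the same range, and the log2 fold change was -0.16 (interval from -0.58 to 0.25, adjusted p = 0.824). Slc16a8 (MCT3), known from retinal pigment epithelium and choroid plexus, had -0.12 (adjusted p = 0.933). Slc16a7 was called as a rise with unequal variances and centred on reference or fibroblast genes.

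Most falls of the Slc16a family were in genes of other or unsettled substrates. Slc16a4, an orphan member, had intensities of 52.1, 76.6, 56.9 and 81.4 in mutants 1 to 4, and of 124 to 249 in the controls, with a median of 152. The groups did not overlap. The difference for Slc16a4 was -1.12 on the log2 scale (standard error 0.17, adjusted p = 5.82e-05), which is 2.18-fold lower. Its controls were highest at 249 and 220, in controls 2 and 6. Slc2a1, Slc16a1 and Slc16a4 were the 3 of the 36 genes (8.33%) whose highest 2 controls were those 2, a share near the 6.92% of all tested genes.

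Slc16a12, whose protein carries creatine, had intensities of 156, 213, 167 and 208 in mutants 1 to 4, and of 314 to 485 in the controls, with a median of 364. All mutants were below all controls. The log2 fold change was -0.95 (standard error 0.14, adjusted p = 3.39e-05), which is 1.93-fold lower. Slc16a6 (MCT7), linked to the export of ketone bodies, had 226, 269, 159 and 214 in mutants 1 to 4, and 256.4 to 408 in the controls, with a median of 366. Only mutant 2 reached above the lowest control. Its log2 fold change was -0.68 (standard error 0.15, adjusted p = 0.00240).

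Slc16a11, known from human variants tied to type 2 diabetes, and its relative Slc16a13 also fell. Slc16a11 had intensities of 82.7, 53.3, 52.6 and 97.2 in mutants 1 to 4, and of 90.2 to 145 in the controls, with a median of 108. Slc16a13 had 221, 240 (239.87), 220 (219.54) and 278 in mutants 1 to 4, and 255 to 408 in the controls, with a median of 337. In both genes only mutant 4 reached the range of the controls. Their log2 fold changes were -0.63 (standard error 0.16, adjusted p = 0.00817) and -0.47 (standard error 0.13, adjusted p = 0.0210).

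Slc16a4 passed under all 31 alternative settings, with log2 fold changes from -1.29 to -0.73. Slc16a12 did so under all but the fold above 2 of the study's methods. That fold was taken here on log2(intensity + 16), which understates it. The mean intensity of Slc16a12 was 186 in mutants and 374 in controls. With a constant of 1 in place of 16 its log2 fold change was -1.003. Slc16a6, Slc16a11 and Slc16a13 lost their calls centred on fibroblast genes (log2 fold changes -0.28, -0.24 and -0.07), with Xist as a covariate and against the 3 controls of low Xist (adjusted p = 0.122, 0.0751 and 0.165). Against those 3 controls their log2 fold changes were -0.55, -0.62 and -0.47, and with Xist as a covariate -0.53, -0.61 and -0.47. Calls were also lost with unequal variances by Slc16a6 (adjusted p = 0.105) and Slc16a11 (0.202), and centred on reference genes by Slc16a11 (0.0615) and Slc16a13 (0.128). Slc16a13 also lost it without mutant 1, 2 or 3 (0.0752, 0.0534 and 0.0663) and Slc16a11 without mutant 2 (0.0525).

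The other 4 genes of this family that did not pass were Slc16a5 (log2 fold change 0.03, adjusted p = 0.988), Slc16a9, Slc16a10 and Slc16a14. Slc16a9, which is tied to carnitine efflux, had intensities of 906 to 1224 in mutants, which lay within the control range of 710.4 to 1218 but for the highest mutant, and its log2 fold change was 0.16 (adjusted p = 0.635). Slc16a9 was also the member with a second probe set, at 3.44 to 12.7 over all mice, which was not used. Slc16a14 had 0.47 (interval from 0.02 to 0.93, adjusted p = 0.190) and Slc16a10, a carrier gene of aromatic amino acids, -0.30 (interval from -0.58 to -0.01, adjusted p = 0.181).

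Of the sodium-coupled carriers, Slc5a6 fell most clearly. It encodes the multivitamin transporter, which takes up biotin, pantothenate and lipoate. Its intensities were 621, 537, 494 and 723 in mutants 1 to 4, and 766 to 1129 in the controls, with a median of 1011. All mutants were below all controls. The log2 fold change was -0.73 (standard error 0.14, adjusted p = 0.000607), which is 1.66-fold lower. Slc5a5, the gene of the iodide carrier of the thyroid, was at 61.5, 43.6, 42.8 and 46.0 in mutants 1 to 4, and at 53.6 to 140 (139.88) in the controls, with a median of 108. Mutant 1 lay above the lowest control, control 1. The log2 fold change was -0.85 (standard error 0.19, adjusted p = 0.00319).

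Slc5a6 passed at -0.90 against the 3 controls of low Xist (adjusted p = 0.00212), and lost its call centred on fibroblast genes (-0.34, adjusted p = 0.0512). Slc5a5 lost its call centred on reference genes (0.0540) or fibroblast genes (0.119), with Xist as a covariate (0.0778) and with the replicate block (0.150).

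The remaining 9 Slc5a genes did not pass. Slc5a3, the inositol carrier gene that cells induce under osmotic stress, was at 105, 84.4, 93.2 and 114 in mutants 1 to 4 and at 85.2 to 142 in the controls (median 128). The groups overlapped, and the log2 fold change was -0.25 (interval from -0.54 to 0.04, adjusted p = 0.309). Slc5a7, the choline carrier gene of cholinergic neurons, was dim, at 39.4, 19.7, 14.9 and 23.2 in mutants 1 to 4 and 11.6 to 30.2 in the controls (median 21.4). Its log2 fold change was 0.10 (interval from -0.24 to 0.45, adjusted p = 0.894). The other 7 were the glucose or sugar carrier genes Slc5a1, Slc5a2, Slc5a9 and Slc5a10, the inositol carrier gene Slc5a11, and the monocarboxylate carrier genes Slc5a8 and Slc5a12. Their intensities were 8.79 to 77.5 over all mice and their log2 fold changes -0.12 to 0.12.

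Dim members often had their extreme values in the same arrays. Of the 21 members in the dimmer 50% of genes, 17 had their highest mutant value in mutant 1. That was the mutant array of the highest median over all probe sets. For 16 the lowest mutant value was in mutant 3, the mutant array of the lowest median. For 12 the lowest control value was in control 6, the control array of the lowest median. Of the 15 brighter members this held for 1, 8 and 4. The shares over all dimmer genes were not tested. Over the tested genes the highest median was that of mutant 4 (7.144 on the log2 scale, against 7.053 in mutant 1). Which of the dim carriers the meninges express was not tested.

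Some lists of cell type markers moved with the group and others did not. Of 20 neuronal genes all rose, and their mean on the log2 scale was 9.24 to 9.50 in mutants and 6.25 to 7.56 in controls. Of 16 endothelial genes 9 fell and none rose (none at an unadjusted p under 0.05 either), with means of 8.59 to 8.96 against 8.92 to 9.99. Of 13 genes of microglia and macrophages 11 fell and 1, Tmem119, rose, with means of 8.14 to 8.89 against 9.06 to 9.51. Of the 16 meningeal fibroblast genes 5 fell and 2, Col1a1 and Col3a1, rose. Those that fell were Slc22a6, Crabp2, Ogn, Slc6a13 and Pdgfra. Of 13 astrocyte genes 6 fell and none rose (1 at an unadjusted p under 0.05). No mural or erythroid gene passed (1 of 12 mural genes was higher and 1 lower at an unadjusted p under 0.05, and none of 7 erythroid genes). Of 9 choroid plexus genes Clic6 rose, Kl fell and 7 did not pass. Mutant 1 stood apart in 1 of them, Ttr, at 2841 against 55.3 to 168 in all other mice. The mean of the list, which includes Ttr, was 7.34 in mutant 1 and 6.30 to 6.66 in the other mutants. In controls it was 6.15 to 6.93. The mean without Ttr was not tested. The part of these cell types in the transporter results was not tested.

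**Figure D3:**
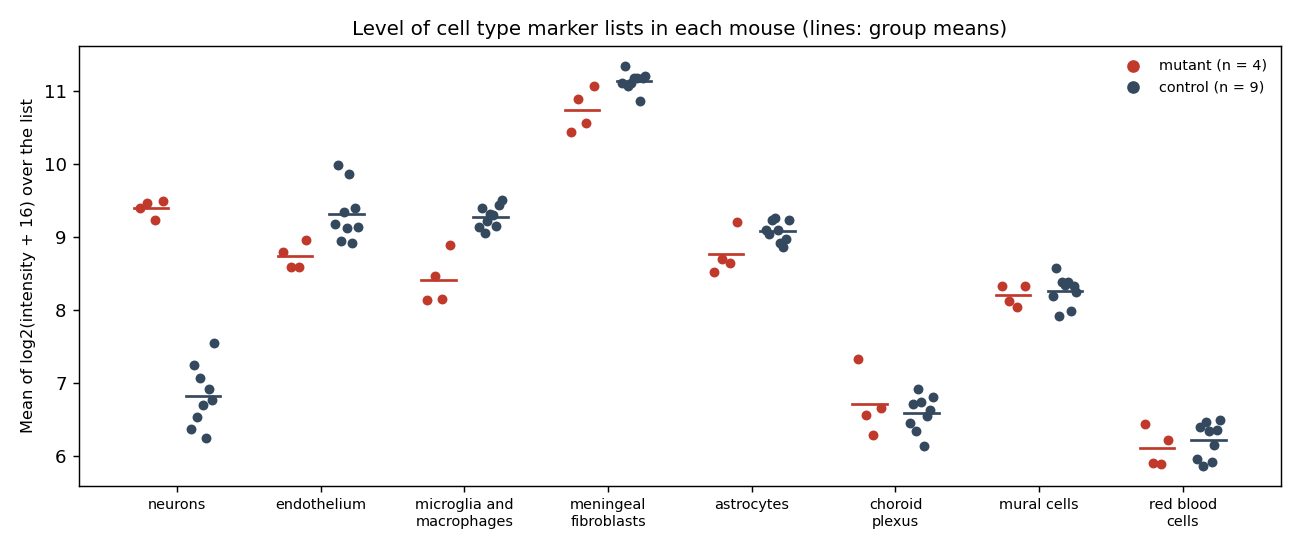
Mean of log2(intensity + 16) over lists of cell type markers (vertical axis) in each of the 4 mutants and 9 controls. Lines mark the group means, and the list of the oligodendrocyte lineage is not shown. Neuronal markers are at 9.24 to 9.50 in mutants and 6.25 to 7.56 in controls, and those of microglia and macrophages lie lower in all mutants than in all controls.

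Genes that work with these carriers were examined from a list of 45, of which 39 were measured. Of these 3 rose and 9 fell, 7.69% and 23.1% of them, against 8.58% and 6.31% of all tested genes, and their median log2 fold change was -0.09. The risers were Thra, the gene of the thyroid hormone receptor alpha (3.09-fold higher), Pfkfb3, which encodes an activator of glycolysis (1.83-fold), and Dio2, the gene of the enzyme that makes active thyroid hormone (1.57-fold). Thra was at 961 to 1292 in mutants and 303 to 469 in controls. Of 6 measured genes for the handling of vitamins 3 fell, as Slc5a6 did, and 3 did not pass. Those that fell were the folate carrier gene Slc19a1 (1.65-fold lower), the thiamine carrier gene Slc19a2 (log2 fold change -0.59) and Btd. The last, whose enzyme frees biotin for reuse, was 1.37-fold lower (adjusted p = 0.0412). Hlcs, the gene of the enzyme that attaches biotin, and the vitamin C carrier genes Slc23a1 and Slc23a2 had log2 fold changes of -0.17, 0.02 and 0.02.

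In the handling of lactate and glucose 5 genes fell. They were Emb, which encodes a chaperone of MCT2 (1.61-fold lower), Ldhb (1.52-fold), Hk3 (1.39-fold), the phosphatase gene G6pc3 (1.36-fold) and Hk2 (1.34-fold, adjusted p = 0.0475). Pdzk1ip1, the gene of a partner of the kidney glucose carrier SGLT2, was 1.87-fold lower. Bsg, which encodes the chaperone of MCT1 and MCT4, had a log2 fold change of -0.40 and did not pass (adjusted p = 0.0724). Hk1 and Ldha had -0.02 and -0.09 (adjusted p = 0.991 and 0.886), and Txnip, a regulator of GLUT1, -0.11 (adjusted p = 0.826). The counts over the 39 genes depended on the setting. Falls numbered 1 with unequal variances (2.01% of all tested genes fell) and 0 by the fold above 2 of the study's methods (0.797%). They numbered 3 with Xist as a covariate (3.03%), 3 against the 3 controls of low Xist (3.23%) and 4 with the replicate block (2.73%). Centred on fibroblast genes 14 rose and 3 fell (44.1% and 2.35%), and after quantile normalization 4 rose and 14 fell (12.7% and 18.9%).

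**Figure D4:**
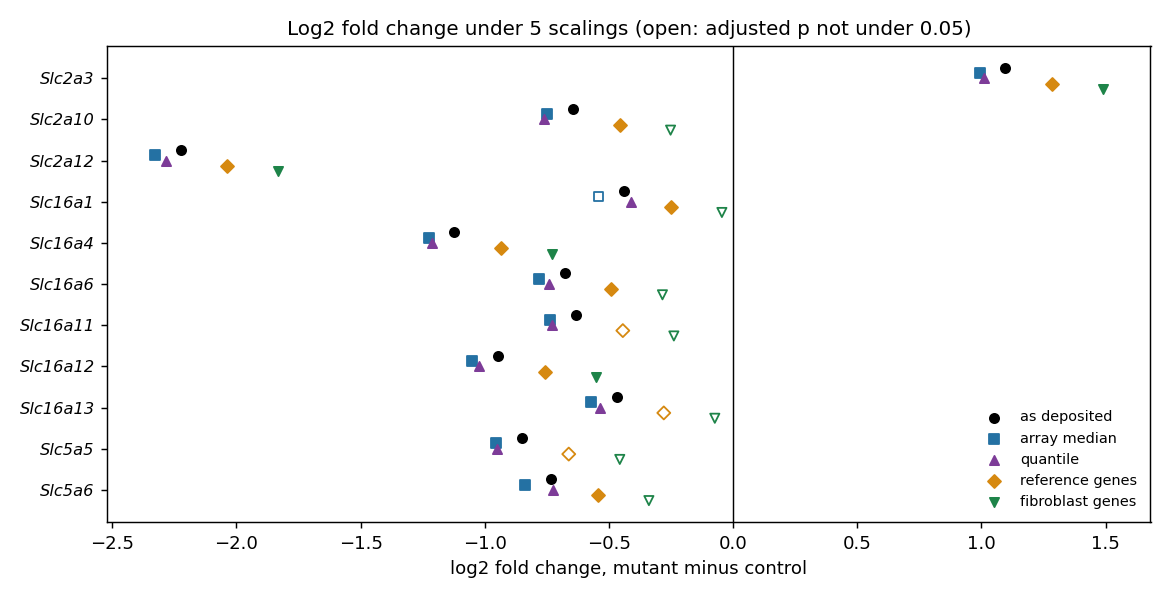
Log2 fold change (horizontal axis) of the 11 transporter genes that passed, with the arrays as deposited and after 4 other scalings. Filled symbols passed the adjusted p and open ones did not. Slc2a3, Slc2a12, Slc16a4 and Slc16a12 are filled under all 5.

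The scaling of the arrays moved the level against which genes are read. The median log2 fold change of all tested genes was 0.0043 as deposited, -0.10 centred on the array median, -0.06 after quantile normalization, 0.19 centred on reference genes and 0.40 centred on fibroblast genes. With these scalings 1, 1, 2, 2 and 5 transporter genes rose and 10, 12, 15, 7 and 3 fell, in the same order. Over all tested genes the shares were 8.58%, 7.76%, 12.7%, 20.2% and 44.1% for rises, and 6.31%, 10.7%, 18.9%, 4.49% and 2.35% for falls. No gene of the 11 changed direction, and values of the last 2 scalings should be read against those medians. The genes that rose on fibroblast centring were Slc2a3, Slc2a13, Slc16a7, Slc16a9 and Slc16a14, and those that fell were Slc2a12, Slc16a4 and Slc16a12. The fibroblast list holds Pdgfra (log2 fold change -0.71), of which each mutant lacks a functional copy, as does any control with the GFP allele. It also holds genes that fell further, Slc22a6, Crabp2, Ogn and Slc6a13 (-1.96, -1.25, -1.09 and -1.08). Among the reference genes Tfrc and Sdha fell.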

How the data were processed

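Cerebral meninges of 13 newborn pups of a single litter, 4 mutants and 9 controls, were measured with 1 array each. The authors made 1 intensity per probe set with PLIER, so the deposited table holds linear intensities. The version, background step and scaling between arrays are not given in the sources used here. Arrays have no read depth, and their number limits the precision.

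Of 35557 probe sets, 21789 carry 1 gene symbol, 1621 several and 12147 are not listed in the platform table. Matching to RefSeq names (21698 matched) changed 0 symbols. A gene with several probe sets was given by the one of highest mean. Values were taken as log2(intensity + 16), so folds of dim genes are understated, and the groups were compared in limma 3.58.1 under R 4.3.3 (two-sided, Benjamini-Hochberg over all 19938 genes), after a test on simulated data.

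Genes described are all 36 members, with values per mouse for those that passed and for a few fixed carriers, and companions that passed. The members and lists were chosen with earlier results of these data known. Marker lists not described in the report covered the oligodendrocyte lineage (3 of 11 measured rose, 1 fell) and reference genes (0 of 13 rose, 2 fell). The 31 alternatives changed the constant, scaling, weights, variance model, test, filter, probe sets, covariate, pairing or mice. The replicate numbers of the labels did not pair the mice (correlations of -0.34, 0.16, 0.31 and -0.09 after group means were removed). Nothing in the labels says that pups are more than separate animals, and the study's methods name 1 litter. The p-values measure the spread between these pups, which in the controls spans several genotypes and both levels of Xist. They do not cover other litters.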

Additional observations from a re-analysis of the deposited data

Results flagged for a closer look

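Dixon's test was run on log2(intensity + 16) in 32 groups (16 genes, mutants and controls). In 3 groups a mouse had a gap to the next over its limit, where chance marks about 5% of groups. Intensities are given below. Slc2a1 was at 1977 in mutant 4, against 1040 (1039.75) to 1144 in the other mutants. Slc2a12 was at 730.4 in control 1, against 896 to 1080 in the other controls, and without control 1 its log2 fold change was -2.27. Slc16a6 was at 256.4 in control 1, against 324 to 408 in the other controls, and its value without control 1 was -0.73.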

How the results depend on the processing

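As reported, 1 transporter gene rose and 10 fell. The count of rises was 2 after quantile normalization and without the 4 arrays of lowest median (each with Slc16a14). It was also 2 centred on reference genes and with unequal variances (each with Slc16a7), and 5 centred on fibroblast genes. Over all tested genes 12.7%, 8.91%, 20.2%, 5.71% and 44.1% rose at these settings, in the order named, against 8.58% as reported. The count of falls was 3 centred on fibroblast genes (2.35% of all tested genes fell) and 6 with unequal variances (2.01%). It was 4 with Xist as a covariate (3.03%) and 6 against the 3 controls of low Xist (3.23%). With the replicate block, which rests on the 4 mutants and controls 1 to 4, it was 5 (2.73%). By the methods' t-test it was 10 after Benjamini-Hochberg (6.13%) and 2 with its fold above 2 (0.797%). That fold was taken on log2(intensity + 16). With a constant of 1, Slc16a12 and Slc5a5 had log2 fold changes of -1.003 and -1.03. As reported, 6.31% of all tested genes fell. Leaving out 1 mouse gave 1 to 2 rises (6.68% to 9.55% of all tested genes) and 8 to 10 falls (3.9% to 7.47%). The cause of these changes was not tested. Under the other settings both counts were within 1.5 times those reported, and no gene of the 11 changed direction. The replicate block cost Slc16a1, Slc16a6, Slc16a11, Slc16a13 and Slc5a5 their calls and no other. Without the dimmest 50% of genes, Slc16a11 and Slc5a5 were not tested. In the dimmer 50% of tested genes lay 9 of the 11 Slc5a genes, where signal over background limits what can be read.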
